A study of Mus musculus with 4 samples.

Results

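The 10 genes described here encode the proteins that license replication origins and form the MCM helicase. The 6 subunits of the ring are Mcm2, Mcm3, Mcm4, Mcm5, Mcm6 and Mcm7. The loading factors are Cdc6 and Cdt1, and the activating factors are Mcm10 and Cdc45. Of the 22063 genes in the table, these 10 were chosen by gene symbol, with earlier results of these data known. They were compared between ID8 cells, a mouse ovarian cancer line, that carried a control shRNA (shCtrl, genotype label WT) and ID8 cells in which USP9X, a deubiquitinase, was knocked down (shUSP9X, genotype label USP9X knockdown). Each group had 2 libraries of poly(A)-selected RNA, and the labels do not say whether the 2 came from separate cultures, so the p-values measure only the spread between these libraries, which may be technical. The study's methods describe lentiviral shRNA vectors, and a standard incubator for all cells except those of hypoxia experiments. Which kind of experiment the sequenced cells belonged to, whether TGF-β1 was added to them and which shRNA sequence they carried is not stated for these libraries, whose descriptions number them shUSP9X-21 and shUSP9X-22 without saying what the numbers stand for. Library totals were 17232006 and 15611363 estimated counts for shCtrl and 19978889 and 17021261 for shUSP9X. The members had between 721 and 9806 counts in every library, and all 10 were among the 11448 genes abundant enough to be tested.

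In G1 phase the origin recognition complex marks origins, CDC6 joins it, and CDT1 delivers the MCM ring, which is loaded onto DNA in an inactive form. In S phase, kinases trigger the joining of CDC45 and the GINS complex to the ring, and MCM10 helps the finished helicase to open the DNA. Geminin and the destruction of CDT1 prevent a second round of loading in the same cycle, and many of these genes are known targets of E2F transcription factors.

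Promoter sequences are shown because E2F factors are known for this group. Of the 10 members, 9 had a promoter entry in RefSeq (GRCm38.p6), taken from 250 bases before to 50 after the gene's start, and Mcm4 was not among them. Mcm7 had an entry for each of 2 starts. The words searched on both strands were TTCCCGC with the related form TTCGCGC, and TTGGCGC with the related form TTGCCGC, and they may overlap each other. At least 1 of them was found for 6 of the 9 members (Mcm3, Mcm5, Mcm6, Mcm7, Cdt1 and Cdc6), against 9.57% of all 32851 RefSeq promoters and 16.9% of those of tested genes. None was found in these windows for Mcm2, Mcm10 and Cdc45. Whether E2F factors had a part in the members' differences between groups was not tested. The word CCAAT was found for 7 of the 9 members and in 37.4% of all promoters and 38% of those of tested genes. TTTGAA, the cell cycle homology region, was found for 2 of the 9, against 17.9 and 12.1%. Below, the coding strand is written 5′ to 3′ with the E2F-type words in capitals, first the 250 bases before the start of Mcm5 (chr8:75109259-75109508, plus strand), the member with the largest log2 fold change, and of Mcm6 (chr1:128359706-128359955, minus strand), in which the words stand in 2 clusters. The 30-base windows that follow lie at Mcm3 (chr1:20820264-20820293, minus strand), Mcm7 (chr5:138171847-138171876, minus strand), Cdt1 (chr8:122568029-122568058, plus strand) and Cdc6 (chr11:98908001-98908030, plus strand).
Mcm5: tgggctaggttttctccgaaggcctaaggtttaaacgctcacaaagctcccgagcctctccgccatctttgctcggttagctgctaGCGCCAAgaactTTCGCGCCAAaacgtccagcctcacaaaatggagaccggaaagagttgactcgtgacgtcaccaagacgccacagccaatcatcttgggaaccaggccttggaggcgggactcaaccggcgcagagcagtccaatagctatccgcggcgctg
Mcm6: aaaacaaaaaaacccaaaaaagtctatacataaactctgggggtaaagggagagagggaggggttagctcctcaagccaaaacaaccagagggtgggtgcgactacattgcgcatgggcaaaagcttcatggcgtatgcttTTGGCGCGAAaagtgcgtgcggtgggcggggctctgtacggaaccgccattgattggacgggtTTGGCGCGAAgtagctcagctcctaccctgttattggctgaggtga
Mcm3: GCGGGAAaacttgggaagttTTGGCGCCAA
Mcm7: gtgacgacgtTTCGCGCCAAtttcggttgg
Cdt1: atccGCGGGAActacctttTTGGCGCcatg
Cdc6: ggccggtggagaGCGGGAAatcgcctgggg
A match of letters is a description of these windows and not a binding site.

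Usp9x, the target of the shRNA (ENSMUSG00000031010), was measured first as a check of the labels. Its TMM-normalized CPM (its count scaled for library size) were 298.1 and 281.6 in shCtrl and 19.7 and 20.5 in shUSP9X. The log2 fold change was -3.85 with a standard error of 0.06 (adjusted p = 4.7e-26, quasi-likelihood test of edgeR, Benjamini-Hochberg adjustment across the 11448 genes), the direction that the labels give. Of 13 markers of ovarian surface epithelium and mesothelium, 11 were above 3 counts in every library, and their summed level was 4596 and 4682 CPM in shCtrl and 5680 and 5578 CPM in shUSP9X, with Vim the most abundant. Of the 12 tested, 5 were higher and 5 were lower, or 4 and 7 after the correction for GC content and length described below. Krt8 and Krt18 rose by 0.92 and 0.64 on the log2 scale, Wt1 and Msln fell by 0.52 and 0.47, and Muc16 was at a mean of 2.31 CPM in shCtrl and 0.0253 CPM in shUSP9X. With that correction Krt8 and Krt18 rose by 0.65 and 0.34, and Wt1 and Msln fell by 0.70 and 0.71. Krt19 went from higher (0.12) to lower (-0.17, adjusted p = 5.7e-06, edgeR).

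Of the 10 members, 9 passed an adjusted p of 0.05 as higher in shUSP9X cells, 0 were lower, and Mcm4 was not called. Of all tested genes, 33.8% were higher and 33.6% were lower under the same rule, and among the 4384 genes at least as abundant as Cdc45, the least abundant member, 47.5% were higher. In 9 of the 10 members both shUSP9X libraries lay above both shCtrl libraries, against 41.2% of tested genes. The median log2 fold change was 0.47 over the members and 0.00 over all tested genes. The study's methods set a stricter rule with DESeq2, a fold change above 1.5 and a raw p under 0.05. Under it, with p from edgeR, Mcm5, Cdt1, Cdc6 and Mcm10 were higher, 4 of 10 members against 10.8% of tested genes. Mcm10 only just passed, at 1.52-fold. RNA was taken from whole cultures, so more cells in a phase that uses these genes and more RNA per cell cannot be told apart.

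**Figure D1:**
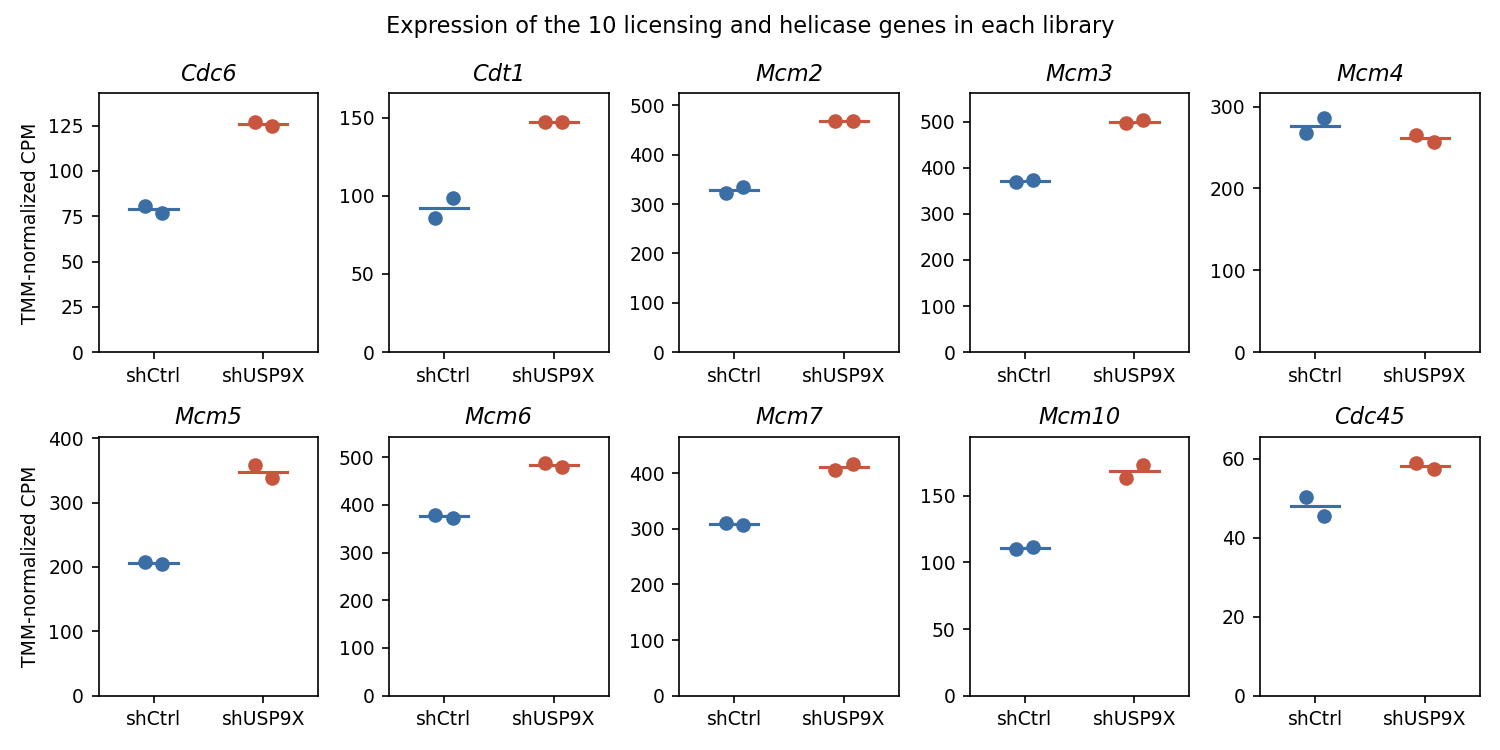
Each panel plots 1 gene, with the TMM-normalized CPM of each library as points (shCtrl blue, shUSP9X red) and the mean of each group of 2 libraries as a line, on axes that start at 0. The shUSP9X points lie above the shCtrl points in 9 panels and slightly below them in that of Mcm4.

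Both loading factors rose. Cdc6 (ENSMUSG00000017499, chr11:98907801-98923940), the ATPase that joins the origin recognition complex and recruits the ring, was at 80.8 and 76.7 CPM in shCtrl and at 127.2 and 124.6 CPM in shUSP9X. Its log2 fold change was 0.68 with a standard error of 0.05 (adjusted p = 8.8e-12, edgeR), a 1.6-fold rise, and the groups were far apart compared with the gap between libraries of a group. Cdt1 (ENSMUSG00000006585, chr8:122568015-122573554), which carries the MCM ring to the origin, was at 85.6 and 98.6 CPM in shCtrl and at 147.3 CPM in each of the shUSP9X libraries. Cdt1 rose by a log2 fold change of 0.68 with a standard error of 0.06 (adjusted p = 3.3e-11, edgeR). Its shCtrl libraries were the more uneven pair, at 92.1 ± 9.21 CPM (mean ± SD, n = 2), and both still lay below the shUSP9X libraries.

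Among the ring subunits, 5 of 6 rose and their rises were unequal. Mcm5 (ENSMUSG00000005410, chr8:75109569-75128439) had the largest log2 fold change of the 10 members, from 207.4 and 204.5 CPM in shCtrl to 357.7 and 338.8 CPM in shUSP9X. Its log2 fold change was 0.76 with a standard error of 0.04 (adjusted p = 4.4e-15, edgeR), or 1.69-fold. MCM5 forms with MCM2 the gate through which the ring opens around DNA. Mcm2 (ENSMUSG00000002870, chr6:88883474-88898780), the other side of that gate and a histone-binding subunit, was at 323.2 and 333.7 CPM in shCtrl and at 467.2 and 468.9 CPM in shUSP9X. That difference was 0.51 on the log2 scale with a standard error of 0.04 (adjusted p = 1.9e-12, edgeR). Both genes of the gate were thus higher in shUSP9X with no overlap of libraries.

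Mcm3 (ENSMUSG00000041859, chr1:20802968-20820312), through which the ring contacts the loading complex, was at 369.5 and 373.7 CPM in shCtrl and at 496.1 and 503.1 CPM in shUSP9X, a log2 fold change of 0.43 with a standard error of 0.04 (adjusted p = 4.1e-11, edgeR). Mcm7 (ENSMUSG00000029730, chr5:138164583-138172422), a subunit of the catalytic core, was at 311.0 and 307.0 CPM in shCtrl and at 406.4 and 417.1 CPM in shUSP9X, with a log2 fold change of 0.41 and a standard error of 0.04 (adjusted p = 1.7e-10, edgeR). Mcm6 (ENSMUSG00000026355, chr1:128331590-128359664), which also belongs to the core and contacts CDT1, was at 379.8 and 372.6 CPM in shCtrl and at 487.3 and 479.0 CPM in shUSP9X, with a log2 fold change of 0.36 and a standard error of 0.04 (adjusted p = 1.2e-09, edgeR). These 3 genes differed between groups by more than the spread within either group, and their rises were smaller than that of Mcm5.

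Mcm4 (ENSMUSG00000022673, chr16:15623897-15637400), a core subunit whose tail is a target of the kinase that fires origins, was the exception. Its level was 267.9 and 285.8 CPM in shCtrl and 265.9 and 256.2 CPM in shUSP9X. The shUSP9X libraries lay below the shCtrl libraries by a margin smaller than the gap within either group. The log2 fold change was -0.08 with a standard error of 0.04 (adjusted p = 0.0747, edgeR), which did not pass the threshold and does not show that the groups were equal. Mcm4 was lower with scaling by library size only (-0.11, adjusted p = 0.0195, edgeR), with a minimum of 10 counts in every library (-0.09, adjusted p = 0.049, edgeR) and without shCtrl replicate 1 (-0.12, adjusted p = 0.00486, edgeR), and it was higher with the GC content and length offset described below (0.12, adjusted p = 0.00802, edgeR).

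Of the activating factors, Mcm10 (ENSMUSG00000026669, chr2:4989714-5012791), needed for the loaded helicase to unwind DNA, was at 110.4 and 111.9 CPM in shCtrl and at 163.5 and 173.4 CPM in shUSP9X. Its log2 fold change was 0.60 with a standard error of 0.05 (adjusted p = 2.3e-11, edgeR), or 1.52-fold. Cdc45 (ENSMUSG00000000028, chr16:18780447-18811987), the subunit that joins the ring with GINS, was at 50.4 and 45.6 CPM in shCtrl and at 58.9 and 57.3 CPM in shUSP9X. This was the smallest of the called rises, 0.27 on the log2 scale with a standard error of 0.07 (adjusted p = 0.00101, edgeR), although the groups did not overlap.

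Levels can be set between genes only per length, and the authors' FPKM values, which are scaled for transcript length and library size, give an order within each library. In both shCtrl libraries the order was Mcm7, Mcm6, Mcm3, Mcm2, Mcm4, Mcm5, Cdt1, Mcm10, Cdc6 and Cdc45, from 145.8 and 138.3 FPKM for Mcm7 to 24.3 and 22.2 FPKM for Cdc45, and no neighbours in it overlapped between libraries. All ring subunits were more abundant per length than the loading and activating factors in every library. In shUSP9X cells Mcm7 still led at 186.1 and 186.8 FPKM, and Mcm6 (164.3 and 161.7 FPKM) and Mcm3 (161.9 and 164.3 FPKM) could not be ordered. The clearest change in order was between Mcm5 and Mcm4. Mcm5 was the lowest ring subunit in shCtrl at 74.1 and 75.0 FPKM and came to 130.4 and 123.7 FPKM in shUSP9X, where Mcm4 was the lowest at 74.8 and 72.0 FPKM.

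The make-up of the ring transcripts moved accordingly. The FPKM of the 6 subunits summed to 645.3 and 647.4 in shCtrl and to 854.6 and 846.1 in shUSP9X. Mcm4 made up 11.8 and 12.5% of that sum in shCtrl and 8.76 and 8.51% in shUSP9X, while Mcm5 went from 11.5 and 11.6% to 15.3 and 14.6%. The shares of Mcm2, Mcm3, Mcm6 and Mcm7 stayed between 15 and 22.6% in every library. Divided by the mean of the other 5 subunits, the FPKM of Mcm4 was 0.671 and 0.714 in shCtrl and 0.48 and 0.465 in shUSP9X, with no overlap. With 2 libraries against 2, an exact two-sided permutation test of this ratio gave p = 0.333, the smallest this design allows. These shares and ratios are not corrected for GC content and length. With the offset described below, Mcm4 was at 0.12 on the log2 scale and the other ring subunits lay between 0.23 and 0.63. Without it Mcm4 was at -0.08 and the others lay between 0.36 and 0.76, so the offset brought Mcm4 closer to them. The order of the ring subunits depended on the transcript lengths used. With CPM per kilobase of annotated transcript in place of FPKM, Mcm3 led in shCtrl, followed by Mcm7, Mcm2 and Mcm6, and Mcm4 and Mcm5 kept places 5 and 6.

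**Figure D2:**
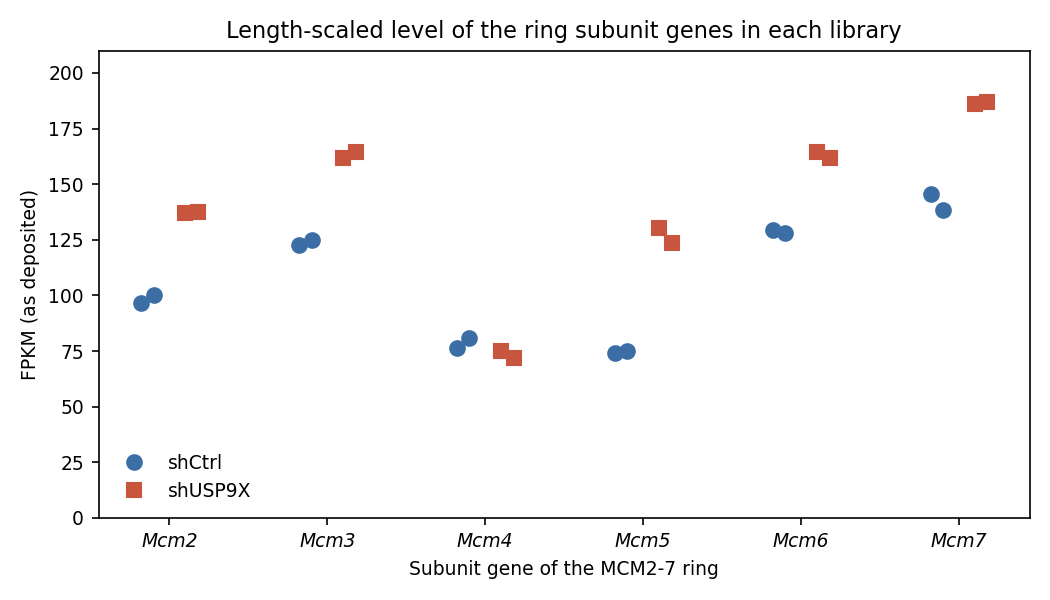
The 6 ring subunit genes are on the horizontal axis and the deposited FPKM of each library is on the vertical axis, which starts at 0 (shCtrl circles, shUSP9X squares). Mcm4 stays between 72.0 and 80.9 FPKM while Mcm5 goes from 74.1 and 75.0 to 130.4 and 123.7 FPKM.

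Over the tested genes, transcripts rich in GC tended to be higher and long ones lower in shUSP9X (Spearman's rho = 0.447 for GC content and -0.331 for length, both across genes, which are not independent replicates). When the genes were split by GC content into 10 equal classes, the median was -0.88 in the lowest class, reached 0.25 in the 2 classes below the highest and was 0.18 in the highest. The members' transcripts had 45.5 to 58.8% GC, and the 7594 tested genes in that range had a median of 0.12. Mcm4 had the lowest GC content of the members, at 45.5%, in a class with a median of -0.19. All 10 members lay above the median of their own class, Mcm4 included. The members were refitted with an offset that removes each library's trend on GC content and length. With it, all 10 members were higher, against 36.1% of tested genes, and their median was 0.38, against 0.05 over all tested genes.

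The offset reordered the members. The rises of Mcm2, Mcm3, Mcm5, Mcm7, Cdc45 and Cdt1 became smaller, to 0.33, 0.27, 0.63, 0.23, 0.15 and 0.43 on the log2 scale, and that of Cdc45 was then close to the threshold (adjusted p = 0.0476, edgeR). Those of Mcm6, Mcm10 and Cdc6 became larger, at 0.50, 0.69 and 0.71, so that Cdc6 and Mcm10 stood above Mcm5. Mcm4 remained the smallest member at 0.12 with a standard error of 0.04. The same offset took Usp9x, whose transcript is long and has 40% GC, from -3.85 to -2.34. The design gives the direction of that difference and not its size. Whether the part taken away was knockdown or the trend was not tested.

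**Figure D3:**
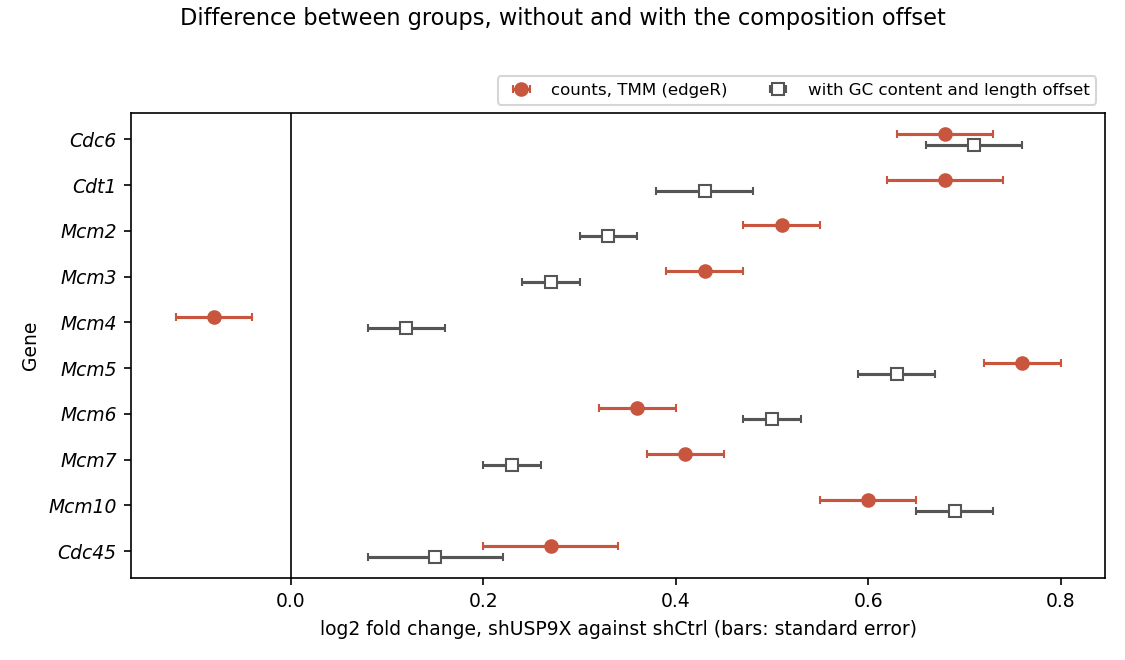
The horizontal axis is the log2 fold change of shUSP9X against shCtrl for each member, from the TMM-normalized counts (filled circles) and from the fit with the offset (open squares), and bars are standard errors. Mcm4 is the member whose sign differs between the 2 fits, at -0.08 and 0.12.

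**Figure D4:**
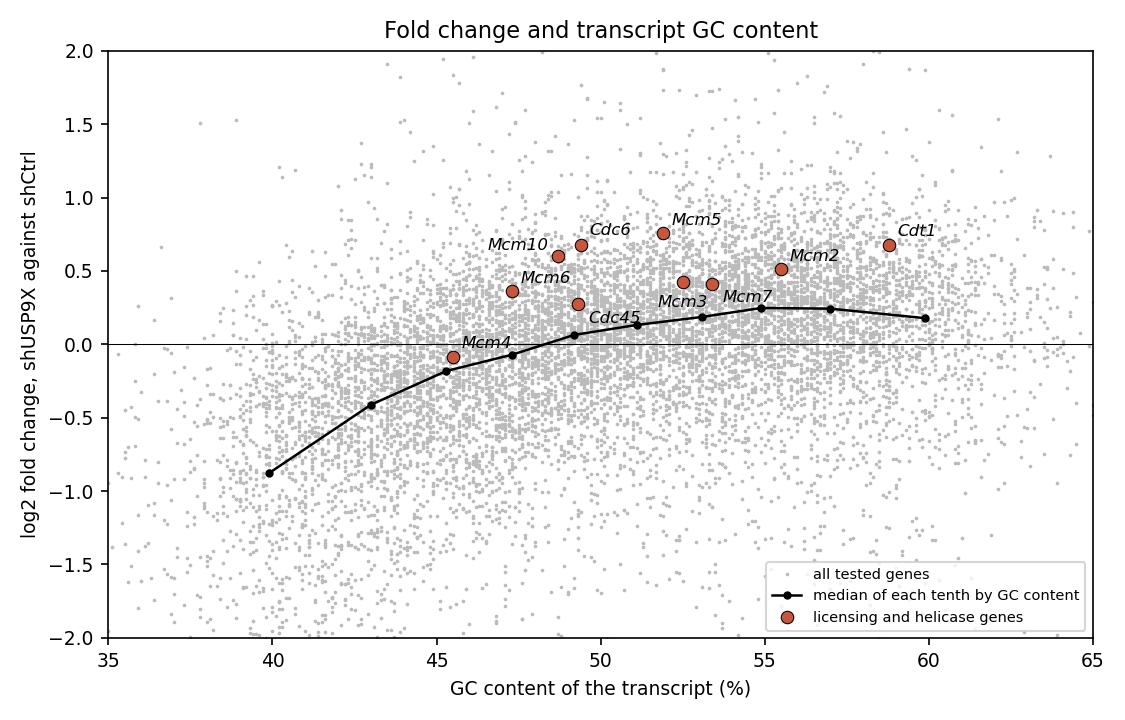
Each grey point is a tested gene, with the GC content of its transcript on the horizontal axis and its log2 fold change on the vertical axis, and the black line joins the medians of 10 equal classes by GC content (572 genes lie outside the axes). The members (red) lie above the black line, Mcm4 at the low GC end and Cdt1 at the high end.

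Some members share sequence with other genes in the GENCODE annotation, and the sources used here do not say whether the counting used strand. Mcm7 overlaps the end of Cops6 on the opposite strand by 64 bases and Ap4m1, also on the opposite strand, by 421 bases. Cops6, a signalosome subunit, was also higher (0.35, adjusted p = 1.2e-06, edgeR), and Ap4m1 was not called (0.06, adjusted p = 0.675, edgeR). Cdc45 overlaps Ufd1 by 209 bases on the opposite strand, and Ufd1 was not called (0.13, adjusted p = 0.0802, edgeR). Reads from these stretches cannot be told apart without strand. Cdt1 lies inside the read-through gene model Gm20388 on its own strand, and the hairpins of Mir25, Mir93 and Mir106b lie inside Mcm7.

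Beside the members, 120 further genes of replication were placed in 11 lists by function. Of the 117 tested, 50 were higher (42.7%) and 34 were lower (29.1%), with a median log2 fold change of 0.07, against 33.8 and 33.6% and 0.00 over all tested genes. In several lists, genes of 1 complex moved in opposite directions. With the offset 56 of these genes were higher (47.9%) and 28 were lower (23.9%), against 36.1 and 27.4% of all tested genes, and the medians of the origin recognition complex, the licensing brakes and the firing factors changed sign, to 0.04, 0.12 and 0.11.

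The origin recognition complex, to which CDC6 binds, had genes called in both directions. Orc1, the subunit that joins the complex in G1, rose from a mean of 26.3 to 38.8 CPM (log2 fold change 0.56) and Orc5 from 27.3 to 36.1 CPM (0.41). Orc2, Orc3 and Orc4 fell by 0.33, 0.69 and 0.96 on the log2 scale, and Orc6 was at -0.14 and not called (adjusted p = 0.0526, edgeR). Thus 3 of 6 were lower (50%) and 2 were higher (33.3%), with a median of -0.24. Of all tested genes, 33.6% were lower and 33.8% were higher, so calls in both directions are not particular to this complex. With the offset Orc3 was the 1 subunit still called lower (-0.39), while Orc2 was at -0.05 and Orc4 at 0.13 (adjusted p = 0.407 and 0.279, edgeR).

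Of the 4 GINS genes, which complete the helicase together with CDC45, Gins2 rose from 59.3 to 79.7 CPM (0.43) and Gins1 from 24.1 to 28.3 CPM (0.23). Gins3 and Gins4 were not called, at 0.08 and 0.02 (adjusted p = 0.642 and 0.857, edgeR). Gins1 was close to the threshold (adjusted p = 0.0325, edgeR). With the offset it was not called (adjusted p = 0.0899, edgeR), although its log2 fold change was 0.18, against 0.23 without it, both with a standard error of 0.09. The number of GINS genes called higher went from 2 to 1 with DESeq2, with library size scaling and in both fits with the offset. It was 0 at the study's cutoff and moved in 8 of 16 alternatives. The rest of these were the fits without shCtrl replicate 1, without shUSP9X replicate 1 and without shUSP9X replicate 2. With the offset Gins4 was lower (-0.21, adjusted p = 0.0146, edgeR). Of the 4 tested MCM relatives outside the ring, 2 were higher and 1 was lower. Mcm8, a helicase of recombination repair, fell by 0.71 on the log2 scale from 37.6 to 23.0 CPM, and its partner Mcm9 was not called (-0.04, adjusted p = 0.812, edgeR). Mcmbp, which binds free MCM subunits, rose by 0.26 and Mcm3ap by 0.25, of which 1 was still called without shUSP9X replicate 1.

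Among 10 tested genes that restrain licensing or destroy CDT1, 4 were higher, 3 were lower and the median was -0.04. Gmnn, which encodes geminin, the inhibitor of CDT1, was not called at a mean of 54.7 CPM in shCtrl and 49.9 CPM in shUSP9X (-0.13, adjusted p = 0.092, edgeR). The cullin genes Cul4b and Cul1, scaffolds of the ligases that mark CDT1, fell by 1.11 and 0.68, and Dtl, which recognizes CDT1 on the sliding clamp, fell by 0.26. Skp2, the substrate receptor of the other CDT1 ligase, rose by 0.63 from 49.8 to 77.1 CPM, and Ddb1 and Fbxo31 rose by 0.34 and 0.30. Scaling by library size only put 5 genes of this list lower in place of 3. With the offset Cul4b and Cul1 fell by 0.55 and 0.42 and Skp2 rose by 1.12, Dtl was higher (0.12, adjusted p = 0.0256, edgeR), Fbxo31 was no longer called (adjusted p = 0.141, edgeR) and Gmnn was lower (-0.32, adjusted p = 7.8e-05, edgeR).

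The kinases and loaders that fire licensed origins had 6 of 13 genes lower and 4 higher, with a median of -0.04. Ccne2, Topbp1 and Dbf4 fell by 0.94, 0.86 and 0.83, the last being the activator of the kinase that targets MCM4, and Cdc7, that kinase, fell by 0.69. Ccne1, the other cyclin E gene, rose by 1.11 from 12.5 to 26.7 CPM, and Recql4 and Cdk1 rose by 0.28 and 0.20. Both cyclin E genes were called in opposite directions, but with the offset Ccne2 was also higher (0.23, adjusted p = 6.7e-04, edgeR), and Recql4 was then not called (adjusted p = 0.0553, edgeR).

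The replicative polymerases had 4 of 12 genes higher and 1 lower, with a median of 0.06. Pola1, which encodes the catalytic subunit of DNA polymerase alpha, fell by 1.84 on the log2 scale from 111.3 to 31.0 CPM. Its partner Pola2 rose by 0.41. Pold2 and Pold1 of polymerase delta rose by 0.73 and 0.47. With the offset Pola1 fell by 1.11, Pola2, Pold2 and Pold1 rose by 0.18, 0.45 and 0.34, and 6 genes of the list were higher and 2 were lower. Of the clamp, its loader and the lagging strand factors, 9 of 17 were higher and 3 were lower, with a median of 0.22. Rpa2, Fen1 and Rfc2 rose by 0.72, 0.41 and 0.40, and the topoisomerase genes Top1 and Top2a and the large clamp loader subunit Rfc1 fell by 1.55, 1.11 and 1.08. With the offset Rpa2, Fen1 and Rfc2 rose by 0.51, 0.20 and 0.41, and Top1, Top2a and Rfc1 fell by 1.03, 0.57 and 0.86.

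Fork protection and checkpoint genes had 6 of 11 lower and 2 higher, with a median of -0.20. Atr, the kinase of the replication checkpoint, fell by 2.07 from 47.6 to 11.3 CPM, and Etaa1 and Rad17 fell by 1.86 and 0.77, whereas Rad9a and Timeless rose by 0.61 and 0.28. With the offset 4 of these genes were lower and 5 were higher, and Atr, Etaa1 and Rad17 fell by 1.00, 1.08 and 0.47, while Rad9a and Timeless rose by 0.37 and 0.17. Genes of dNTP supply had 8 of 11 higher (72.7%) and 2 lower, with a median of 0.20. Dctd, Samhd1 and Rrm2 rose by 0.67, 0.62 and 0.47, and Rrm2b fell by 1.11, or by 0.25 with the offset (adjusted p = 0.0424, edgeR). Samhd1 degrades dNTPs and Rrm2 makes them, so the rise covered genes of both kinds. Of this list 1 gene in place of 2 was lower in 8 of 16 alternatives, which were DESeq2, both limma-trend fits, both fits with the offset, the study's cutoff, and the fits without shCtrl replicate 1 and without shUSP9X replicate 2.

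In the list of E2F factors, pocket proteins and MuvB subunits, known regulators of cell cycle genes, 7 of 18 were higher and 6 were lower, with a median of 0.02. Mybl2, Lin37 and the activator E2f2 rose by 0.84, 0.68 and 0.67. The pocket protein genes Rb1 and Rbl2, whose products restrain E2F factors, fell by 1.51 and 0.57, and Tfdp2 fell by 0.67. Rbl1, the third pocket protein gene, named after its values were seen, was lower (-0.33) and with the offset higher (0.29, adjusted p = 5.0e-05, edgeR). Rb1 was at 25.2 CPM in shCtrl and 8.81 CPM in shUSP9X. With the offset Rb1, Rbl2 and Tfdp2 fell by 0.82, 0.37 and 0.13, the last close to the threshold (adjusted p = 0.0488, edgeR), and Lin37 rose by 0.37. The number of genes lower was then 4 in place of 6, and 3 with the replicate block and the offset. Of the replication-coupled chromatin genes, 6 of 11 were higher and 3 were lower, with a median of 0.15. Uhrf1, Chaf1b and Dnmt1 rose by 0.56, 0.52 and 0.31, while Supt16, Nasp and Mms22l fell by 0.76, 0.57 and 0.23, the last not with the offset (0.00, adjusted p = 0.952, edgeR), which also took Chaf1b to 0.27 and Supt16 to -0.48.

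**Figure D5:**
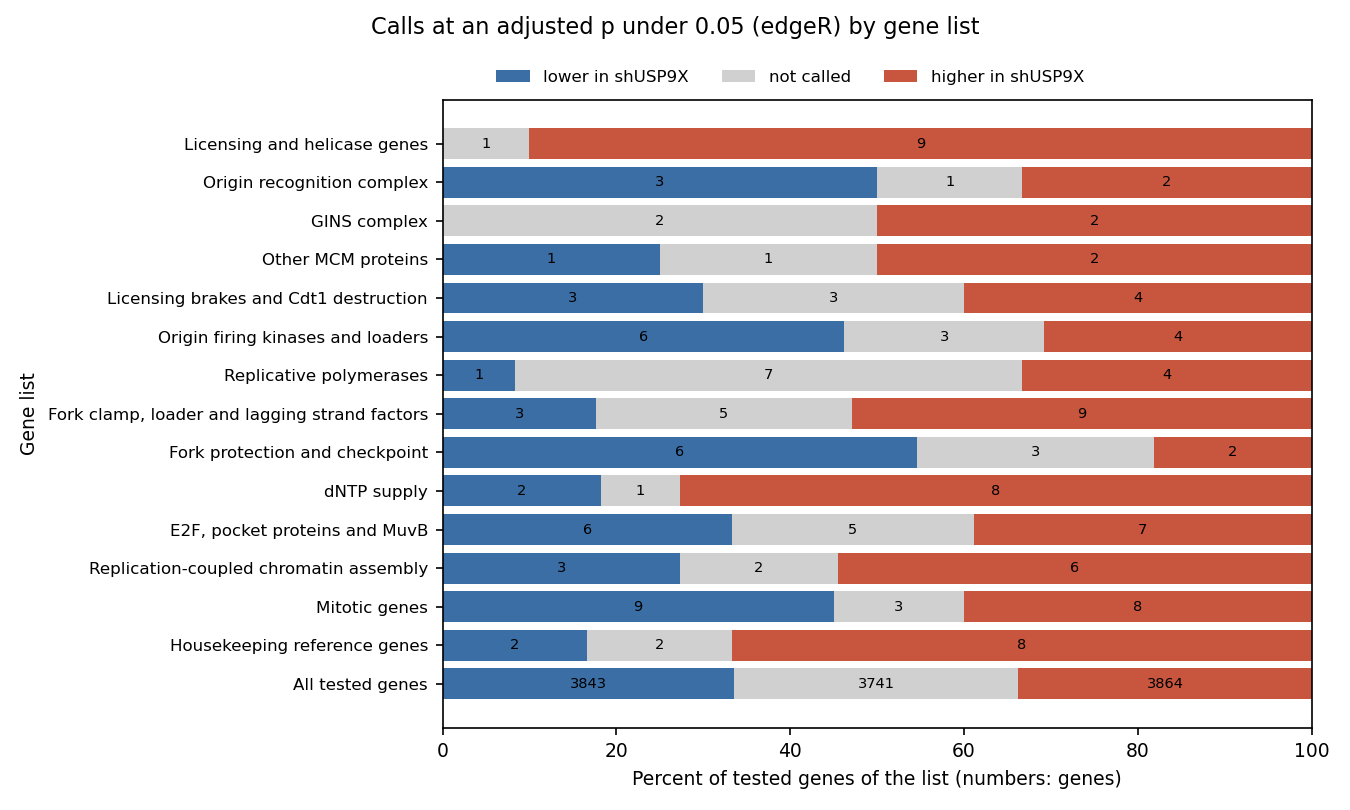
Each bar is a gene list, split on the horizontal axis into the percent of its tested genes that were lower (blue), not called (grey) or higher (red) in shUSP9X at an adjusted p under 0.05, with the number of genes written inside. The licensing and helicase genes had 9 higher and 0 lower, and all tested genes had 3864 higher and 3843 lower.

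A list of 20 mitotic genes, set beside the members as another group that cycles, had 8 higher and 9 lower, with a median of 0.06, or 6 and 11 and -0.10 with the offset. The largest falls, named after their values were seen, were those of Mki67, Cenpf and Cenpe, by 4.45, 4.70 and 4.20 (-3.50, -3.48 and -3.38 with the offset). Mki67 was at 875.1 CPM in shCtrl and 40.0 CPM in shUSP9X. The annotated transcripts of these 3 are long, at 10061, 11130 and 7910 bases, against a median of 3196 over tested genes. The largest rises, named in the same way, were those of Plk1, Cdc20 and Aurka, by 0.69, 0.58 and 0.45 (0.44, 0.30 and 0.24 with the offset). The 12 housekeeping genes had 8 higher and 2 lower, with a median of 0.30, so most of these reference genes moved in the direction of the members. Markers of other cell types also moved with the groups. Of 13 leukocyte markers, 6 were at 0 in every library, among them Cd3e, Ms4a1, C1qa, C1qb and Nkg7. The summed level of the 13 was 0.173 and 0.253 CPM in shCtrl and 10.6 and 11.9 CPM in shUSP9X, with Itgam the most abundant. The 4 leukocyte markers tested, Ptprc, Adgre1, Itgam and Cd74, were all called higher. Their means were 0, 0, 0 and 0.155 CPM in shCtrl and 1.27, 3.22, 4.05 and 2.57 CPM in shUSP9X. Fibroblast markers, of which Dcn was the most abundant and Pdgfrb and Lum were at 0 in every library, summed to 251.8 and 259 CPM in shCtrl and to 147.9 and 145.3 CPM in shUSP9X. Granulosa and theca markers, 4 of 7 at 0 in every library (Foxl2, Fshr, Cyp19a1 and Cyp17a1) and with Star the most abundant, summed to 4.84, 4.36, 2.78 and 2.37 CPM in the same order of libraries. Endothelial markers, 3 of 6 at 0 in every library (Cdh5, Kdr and Cldn5) and with Tek the most abundant, summed to 10.7, 11.7, 6.88 and 7.18 CPM. The part of these marker levels in the members' differences was not tested.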

How the data were processed

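RNA of 4 ID8 libraries was sequenced on an Illumina instrument. Per the labels, the submitters' processing notes name fastp 0.18.0, Bowtie2 2.2.8, HISAT2, StringTie 1.3.1 and RSEM, and the study's methods name GRCm38. For each gene in each library the authors deposited 1 estimated count, not normalized, and 1 FPKM value, scaled for length and library size. Groups were taken from the sample titles. Whole-number counts had been planned for, and the deposited estimated counts (6.395 to 6.69% of values not whole) were rounded. The same test was then used: filterByExpr, TMM and glmQLFTest of edgeR 4.0.16, run in R 4.3.3, with Benjamini-Hochberg adjustment over 11448 genes and no replicate block. Standard errors are the absolute log2 fold change divided by the square root of F. CPM used TMM library sizes. The biological coefficient of variation was 0.0352, so small differences could pass. Libraries of a group differed by more than sampling noise (chi-square per gene 3.35 in shCtrl and 2.23 in shUSP9X). GC content and length were those of the longest coding transcript in GENCODE (99.8% of tested genes), and the offset removed a loess trend of span 0.3. The procedure was tested on simulated data.

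The members and lists were chosen with earlier results of these data known. Named genes are Usp9x, the members, all tested genes of the origin recognition complex, GINS and other MCM lists, up to 3 genes lower and 3 higher with the largest change from every other replication list, and genes that overlap a member. A gene of the dNTP supply list that this rule names is not reported here. Cdc7, Gmnn, Rbl1, the mitotic genes and the cell type markers were named outside this rule, after their values were seen. Alternatives were DESeq2 1.42.0, its size factors, upper quartile and library size scaling, 2 other filters, limma-trend (limma 3.58.1) on FPKM after adding 1 or 0.1 and taking log2 (mean FPKM of 1 or more), a replicate block, the offset with and without the block, each library left out in turn, the study's cutoff, and CPM per kilobase for the order of levels. Molecular identifiers are not described, so the floor of 3 counts covers counting error only.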

Additional observations from a re-analysis of the deposited data

How the results depend on the processing

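Each member was refitted under 15 alternatives, and all except Mcm4 kept their direction and their side of the threshold. Mcm4 (-0.08) was called lower with library size scaling (-0.11), with at least 10 counts in every library (-0.09) and without shCtrl replicate 1, and it reversed to 0.12 with the GC content and length offset and to 0.12 with the replicate block and that offset together. Without 1 library in turn Mcm4 ranged from -0.12 to -0.03 and the lone library of a group was assumed to vary like the others. The number of members lower went from 0 to 1 in the first 3 of these settings, between 0 and 1 with each library left out, and the number higher from 9 to 4 at the study's cutoff and to 10 with the offset. The same cutoff left 2143 tested genes lower and 1233 higher, and 22 and 11 genes of the 11 lists in place of 34 and 50. The smaller counts follow from the stricter rule itself, and for Mcm4 the cause was not tested. Under the other scalings the all-gene median shifted by no more than 0.03. Same-numbered libraries did not deviate together (correlation -0.0453), which does not settle whether they were prepared together. With a replicate block 9 members were higher and 0 lower. With CPM per kilobase of annotated transcript in place of FPKM, the order of the shCtrl means put Mcm3 at place 1, Mcm7 at 2 and Mcm2 at 3. Mcm6 was at 4, Cdc45 at 9 and Cdc6 at 10. In that order Cdc45 and Mcm10 were close, and they changed places between the shCtrl libraries. The 2 libraries per group limit every test, and Cdc45, with the lowest counts, had the largest standard error of the members.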
